A study of Mus musculus with 19 samples.

Results

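From the 24130 Ensembl genes that any library listed, a set of 9 was chosen by name as markers of layer 6 corticothalamic neurons, the excitatory cells of the deep cortex that send their axons to the thalamus. They were Tbr1, Foxp2, Tle4, Ntsr1, Syt6, Rprm, Sulf1, Hs3st4 and Ighm. Polyadenylated RNA was sequenced from the primary somatosensory cortex (S1) of male C57BL/6J mice aged 56 days, with no treatment or altered allele named, and the cortex was cut by hand into 6 adjoining segments from the surface to the white matter. Segment A held mostly layers 1 to 3, B mostly layer 4, E mostly layer 6 and F mostly layer 6b. C and D held mostly layer 5, approximately its upper and its lower part. Segments A, C, D, E and F had 1 library each, from the pooled tissue of 8 mice, and segment B had 2, B1 and B2, each from 4 mice of 1 litter. The mice were the same in all segments.

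Corticothalamic neurons make up a large share of the excitatory cells of layer 6. They excite thalamic relay cells and, through the reticular nucleus, inhibit them, and their branches within the cortex reach layers 4 and 5. During development their identity depends on a set of transcription factors that includes Tbr1, and several of the other genes are used in the adult as labels of these cells, Ntsr1 as the driver of a widely used Cre line.

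The values are FPKM, fragment counts divided by the length of the gene model and by the number of mapped fragments, so levels of different genes can be compared. Each carries a deposited 95% interval for its own library, which holds no variation between mice. A gene was called higher in 1 library than in another where these intervals did not overlap and the FPKM differed at least 2-fold. That share was also taken over the 11409 genes termed classifiable, whose widest interval spanned at most 50% of their mean FPKM. Of the 9 genes, 6 were classifiable: Tbr1, Tle4, Ntsr1, Rprm, Hs3st4 and Ighm. The widest intervals of Foxp2, Syt6 and Sulf1 were all in F and spanned 87.5%, 67.1% and 54.1% of the mean. These genes are therefore outside the set over which that share was taken. Between segments with 1 library each the comparison is one of libraries, and fewer cells of a type cannot be told apart from less RNA per cell.

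The labels of the segments were checked against other genes first. Fezf2, a transcription factor of layer 5 output neurons, was at 26.0 FPKM in C and 22.5 FPKM in D and at 13.3 FPKM in E. Ctgf, a secreted protein of layer 6b, was at 3.53 FPKM in D, 31.4 FPKM in E and 167.3 FPKM in F. Snap25, a synaptic protein of all neurons, was at 1658.5 FPKM in D, 1574.0 FPKM in E and 1114.6 FPKM in F. Its ratio of F to D, 0.672, was lower than the median of 0.899 over 12 neuronal genes taken up below. Depth, estimated from the deposited coverage, ran from 31.3 M fragments in A to 74.9 M fragments in B2. The 9 corticothalamic genes are the subject here and not a check of the labels. In E all 9 stood above the libraries of layers 1 to 5. F, named for layer 6b, held them at gene levels from 0.824 (Syt6) to 1.48 (Sulf1) times those of E.

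All 9 genes were higher in both E and F than in every library of A to D, an ordering found for 24.0% of the classifiable genes. E and F together held 53.7% of the summed expression of Tbr1, the lowest share, and 90.2% of that of Sulf1, the highest. The median share of the 9 genes was 36.5% in E and 37.2% in F, against 17.8% and 18.2% for all classifiable genes. It was 15.7% in D and 5.76% in C.

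**Figure D1:**
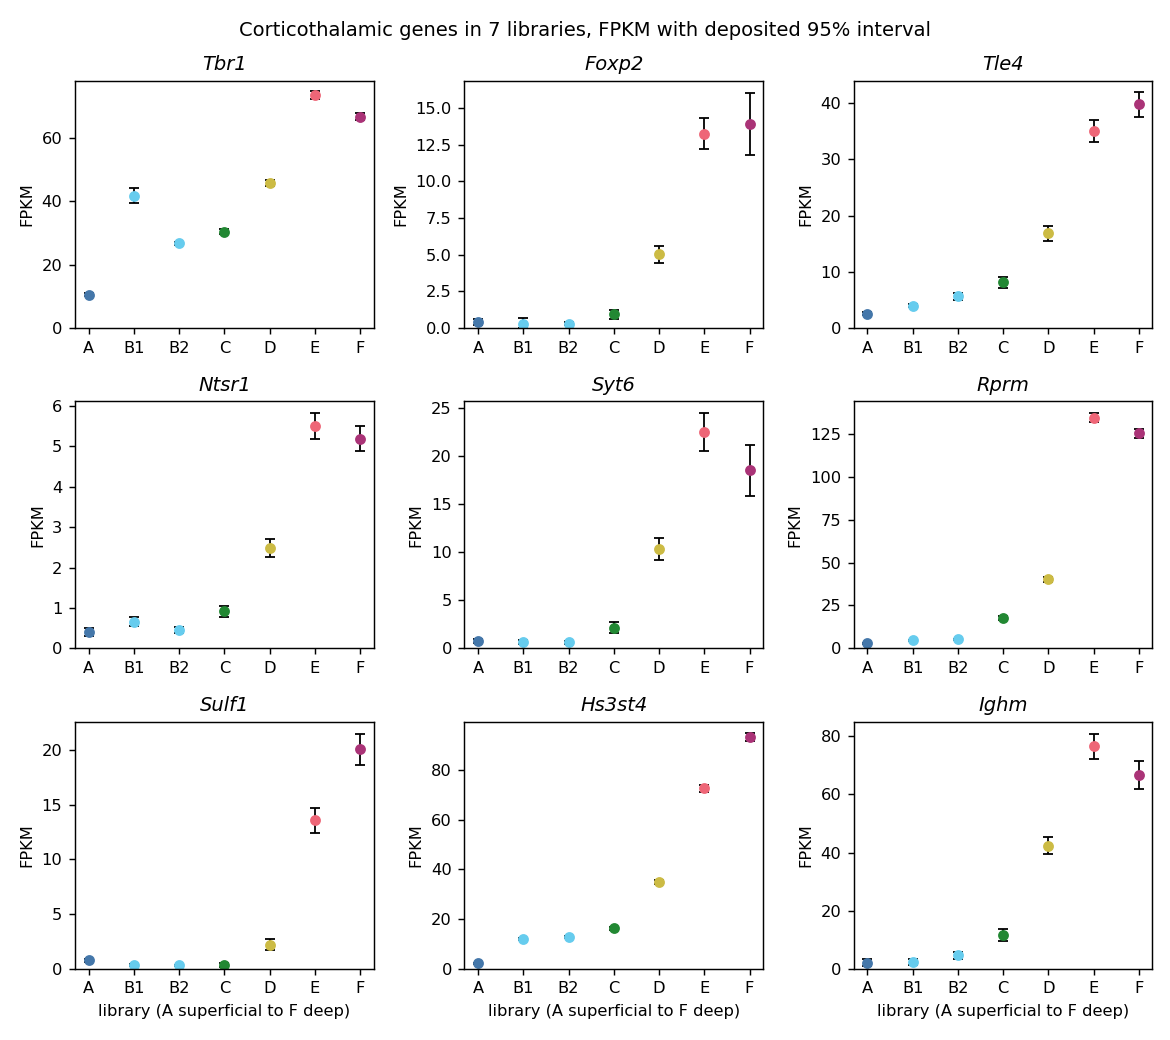
FPKM of the 9 corticothalamic genes (vertical axes, each from 0) in the 7 libraries (horizontal axes), with bars for the deposited 95% interval of each library. In each panel E and F stand above the other 5 libraries, D lies between them and C, and Tbr1 is the gene with the most signal in B, at 41.8 FPKM in B1 and 26.7 FPKM in B2.

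The starts of these genes were compared as sequence before their levels were taken up in turn. RefSeq promoter windows of the GRCm38.p6 build were matched by symbol for 6 of the 9 genes. The windows of Tbr1, Ntsr1, Rprm and Hs3st4, are shown because these are the genes with 1 listed start, and all were higher in E and F than in A to D. Each line is the 250 bases before the start, 5′ to 3′ on the gene's strand, with the letters of a Sox motif in capitals.
Tbr1, chr2:61804203-61804452 on the plus strand: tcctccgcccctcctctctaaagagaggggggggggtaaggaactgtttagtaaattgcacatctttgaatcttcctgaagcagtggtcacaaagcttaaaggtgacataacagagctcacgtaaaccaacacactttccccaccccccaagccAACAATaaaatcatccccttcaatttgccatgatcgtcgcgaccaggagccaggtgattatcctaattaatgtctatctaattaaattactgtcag
Ntsr1, chr2:180499726-180499975 on the plus strand: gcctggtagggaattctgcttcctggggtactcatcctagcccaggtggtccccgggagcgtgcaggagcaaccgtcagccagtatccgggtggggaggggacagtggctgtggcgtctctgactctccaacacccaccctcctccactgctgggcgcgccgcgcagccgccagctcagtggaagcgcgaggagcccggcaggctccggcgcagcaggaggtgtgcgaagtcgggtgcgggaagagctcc
Rprm, chr2:54085553-54085802 on the minus strand: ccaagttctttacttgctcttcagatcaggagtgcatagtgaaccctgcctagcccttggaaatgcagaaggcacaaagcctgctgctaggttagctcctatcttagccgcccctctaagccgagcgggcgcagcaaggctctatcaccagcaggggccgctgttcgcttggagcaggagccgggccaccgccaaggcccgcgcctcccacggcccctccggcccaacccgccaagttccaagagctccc
Hs3st4, chr7:123982578-123982827 on the plus strand: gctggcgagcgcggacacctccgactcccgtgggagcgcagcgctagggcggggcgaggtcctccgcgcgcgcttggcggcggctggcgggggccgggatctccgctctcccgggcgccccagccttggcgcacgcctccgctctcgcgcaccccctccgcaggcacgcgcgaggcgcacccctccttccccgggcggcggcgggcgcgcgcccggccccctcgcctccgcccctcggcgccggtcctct

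The bases G and C made up 45.2% of the Tbr1 window, 68.4% of that of Ntsr1, 62.4% of that of Rprm and 82.0% of that of Hs3st4, against a median of 52.4% over 32851 windows. On both strands, 3 motifs were searched: GGTGTGA for T-box factors such as Tbr1, TGTTTAC for forkhead factors such as Foxp2, and AACAAT for Sox factors. They were held by 3.33%, 3.17% and 9.42% of all windows. In the windows of the 6 genes no T-box or forkhead letters were found. The Sox letters stood 96 bases before the start of Tbr1 and, as the reverse complement ATTGTT, 71 bases before 1 of the 2 starts of Tle4. These are matches of letters, and a window without them says nothing of the factor.

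Among the transcription regulators, Tbr1 showed the smallest difference between segments, and Foxp2 one of the largest. Tbr1, a T-box factor needed for the layer 6 fate (mm9 chr2:61642510-61652171), was at 10.5, 41.8, 26.7, 30.4, 45.8, 73.5 and 66.6 FPKM from A to F, with B1 before B2. It was lowest in A, and E stood above D by 1.61-fold (bounds 1.55 to 1.67), with intervals that did not overlap. B2 was at 0.639 times the level of B1, so the 2 litters of layer 4 differed in Tbr1 about as much as layer 6 and lower layer 5 did. On the log2(FPKM + 0.1) scale the difference of B2 and B1 was -0.65 and that of E and D 0.68. Part of the litter difference lay in the isoform Tbr1-202, estimated at 6.78 FPKM in B1 and 0 in B2. Tbr1-201 alone was at 35.0 FPKM in B1 and 26.7 FPKM in B2, a smaller difference.

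Foxp2, a forkhead factor (mm9 chr6:14851349-15391977), was at 0.392, 0.287, 0.290, 0.932, 5.03, 13.2 and 13.9 FPKM in the same order. Its levels in A, B1 and B2 had intervals that reached at most 0.648 FPKM, below the interval of D, which started at 4.45 FPKM. From C to D it was 5.39-fold higher (3.57 to 9.05), and from D to E 2.64-fold (2.18 to 3.22). Tle4, a Groucho corepressor that binds many such factors (mm9 chr19:14522562-14672473), was at 2.56, 3.96, 5.64, 8.13, 16.8, 35.0 and 39.8 FPKM. No step of Tle4 went down with depth, and E was 2.08-fold above D (1.82 to 2.39).

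The gene of the neurotensin receptor, Ntsr1 (mm9 chr2:180234681-180279685), had the lowest level of the 9 in E. It was at 0.400, 0.664, 0.463, 0.918, 2.49, 5.51 and 5.20 FPKM from A to F. The E library was 2.21-fold above D (1.91 to 2.57), and the intervals of E and F overlapped. Syt6, a synaptotagmin, a family of calcium sensors and membrane traffic proteins (mm9 chr3:103379154-103449076), was at 0.761, 0.690, 0.641, 2.16, 10.4, 22.5 and 18.6 FPKM. Its larger step was from C to D, 4.81-fold (3.38 to 7.29), and E was 2.17-fold above D (1.78 to 2.66).

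Rprm encodes Reprimo, known as a target of p53 that halts the cell cycle at the G2 phase (mm9 chr2:53936504-53937963). It was at 2.98, 4.67, 5.20, 17.8, 40.3, 134.4 and 125.3 FPKM, and so had the highest level of the 9 genes in E and in F. E was 3.34-fold above D (3.16 to 3.53), a larger ratio than that of all but 29 of the 11409 classifiable genes. Among A to C the highest upper bound of an interval was 18.8 FPKM, in C.

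Of the 9 genes, 2 act on heparan sulfate, the sugar chain of many cell surface proteins, and they had the largest and one of the smaller steps from D to E. Sulf1 removes sulfate groups from the chain outside the cell (mm9 chr1:12708610-12850458). It was at 0.784, 0.340, 0.329, 0.329, 2.20, 13.6 and 20.0 FPKM. Its level in E was 6.16 times that in D (4.60 to 8.63), and F was 9.11 times D (6.91 to 12.6). Hs3st4, a 3-O-sulfotransferase of the same chain (mm9 chr7:131126383-131542503), was at 2.20, 12.01, 12.9, 16.3, 34.8, 72.5 and 93.2 FPKM. The step from D to E was 2.08-fold (1.99 to 2.18), and the intervals of B1 and B2 overlapped.

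Ighm, the constant region of the heavy chain of immunoglobulin M (mm9 chr12:114657161-114660941), was at 2.14, 2.35, 4.60, 11.7, 42.3, 76.6 and 66.8 FPKM. E was 1.81-fold above D (1.59 to 2.06) and D 3.62-fold above C (2.84 to 4.76). In layer 4 the 2 litters differed by 1.96-fold (1.06 to 4.16), so the ratio of E to D was no larger than that of the replicate pair, which was measured at a far lower level. Markers of B cells, where this gene is known from, were low in the same libraries, with Blnk as the exception. Blnk was at 0.840, 1.40, 1.86, 4.63, 5.17, 6.24 and 4.99 FPKM from A to F, and so also rose from A to E. The summed level of 8 such genes was lowest in B1, at 1.52 FPKM, and highest in E, at 7.08 FPKM, of which Blnk alone made up 6.24 FPKM. None of the other 7 exceeded the 0.832 FPKM of Igkc in A. None of the 8 differed between D and E by nonoverlapping intervals. The part of B cells in the level of Ighm was not tested.

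In E the order of the levels was Rprm, Ighm, Tbr1, Hs3st4, Tle4, Syt6, Sulf1, Foxp2 and Ntsr1. Ighm, Tbr1 and Hs3st4 had intervals that overlapped one another there, from 71.2 to 81.0 FPKM, as did Sulf1 and Foxp2, from 12.2 to 14.7 FPKM. In F, Hs3st4 was above Ighm and Tbr1, whose intervals overlapped, and Sulf1 was above Syt6, also with overlapping intervals.

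The comparison of layer 6 with lower layer 5 asks where these genes gain their level. In all, 7 of the 9 were called higher in E than in D, against a background of 2.03% of the classifiable genes. The exceptions were Tbr1 and Ighm, whose intervals did not overlap but whose ratios were under 2. Of the 7, Tle4, Ntsr1, Rprm and Hs3st4 were classifiable. The median log2 ratio of E to D was 1.11 over the 9 genes and 0.05 over all classifiable genes. In the replicate pair, B2 was called higher than B1 for 5.04% of the classifiable genes and lower for 3.58%, and for none of the 9 genes. The log2 ratio between these 2 litters was 0.29 in size at the median gene and 1.07 at the 95th percentile. The ratio of E to D passed that percentile for 5 of the 9 genes: Sulf1, Rprm, Foxp2, Ntsr1 and Syt6. Only Rprm and Ntsr1 of these were classifiable. Over all classifiable genes, the ratio passed it upward for 0.780%. For D to C it was passed by 7 of the 9 and 0.771% of the classifiable genes, and for F to D by 5 of the 9 and 4.13%.

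Lower layer 5 already held more of these transcripts than upper layer 5. Of the 9, 8 were called higher in D than in C, against 2.12% of the classifiable genes, and Tbr1 was again the exception at 1.51-fold (1.44 to 1.58). Sulf1, at 6.69-fold (3.51 to 15.7), and Foxp2 had the largest of these ratios. For Foxp2, Syt6 and Ighm the ratio of D to C was larger than that of E to D with bounds that did not overlap, and for Rprm it was smaller in the same way.

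**Figure D2:**
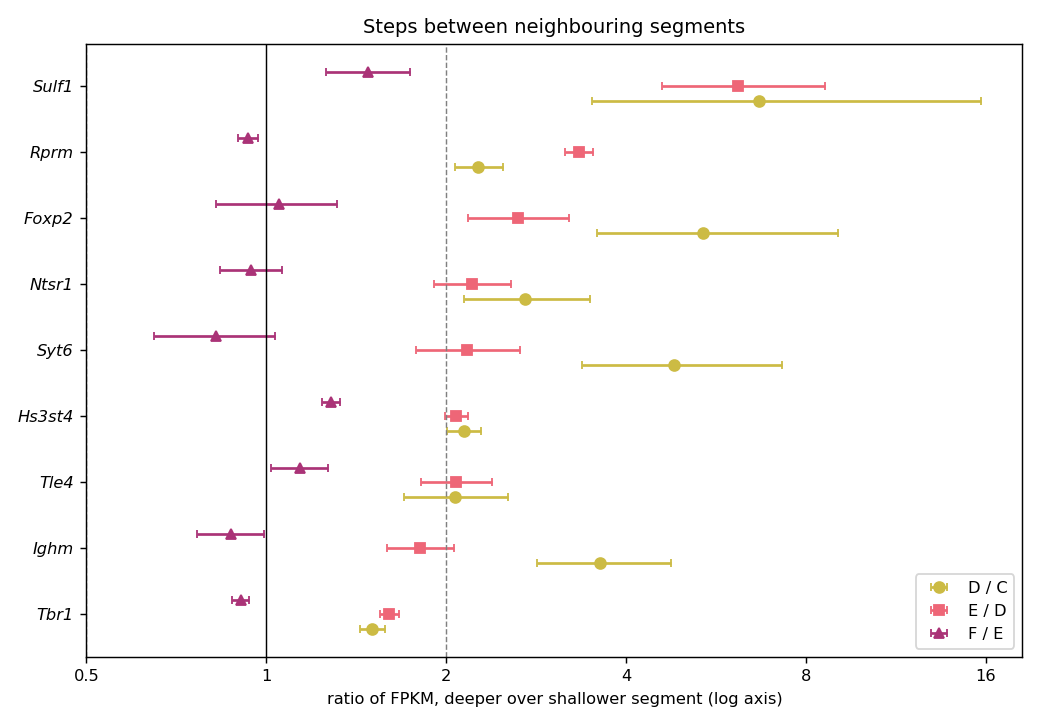
Ratio of FPKM between neighbouring segments (horizontal log axis) for the 9 genes, ordered by the ratio of E to D, with bars from the lower bound of 1 interval over the upper bound of the other to the reverse. The dashed line marks 2-fold; 8 genes lie past it from C to D and 7 from D to E, and from E to F all lie between 0.824 and 1.48.

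For layer 6b against layer 6 the counts were near those of all genes. None of the 9 was called lower in F than in E, where 2.96% of the classifiable genes were, and none was called higher, where 4.36% were. Without a limit on size, the intervals were apart and F higher for 28.7% of the classifiable genes and lower for 25.0%. Of the 9 genes, 3 were higher in that sense and 3 lower. The higher ones were Sulf1 at 1.48-fold (1.26 to 1.74), Hs3st4 at 1.29-fold (1.24 to 1.33) and Tle4 at 1.14-fold (1.02 to 1.27). Ighm at 0.872 (0.766 to 0.990), Tbr1 at 0.907 (0.878 to 0.937) and Rprm at 0.932 (0.896 to 0.970) were the lower ones. The ratios of all 9 lay within the 95th percentile of the replicate pair, and ratios of that size also arose between the 2 litters in layer 4. Against D, 6 of the 9 were called higher in F, where 6.00% of the classifiable genes were. Syt6 at 1.79-fold, Ighm at 1.58-fold and Tbr1 at 1.46-fold were the 3 that were not. The gene levels of Foxp2 and Syt6 in F, and so their ratios to D and E, include short isoforms estimated at 0 in D and E.

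Genes of other cell types also differed between D, E and F. All 10 oligodendrocyte genes were called higher in F than in E, with a median ratio of 3.00, and their summed level was 2223.1 FPKM in D, 4129.9 FPKM in E and 12608.2 FPKM in F. From D to E all 10 had intervals apart and higher, from 1.64-fold for Mag to 1.99-fold for Ermn, and none reached 2-fold. Mbp, myelin basic protein, was at 1202.5 FPKM in D, 2291.3 FPKM in E and 6954.5 FPKM in F. Of 8 layer 6b genes, 6 were called higher in E than in D and 7 higher in F than in E, and none of the 8 was at 0 in any library. Their summed level was 20.0 FPKM in D, 89.0 FPKM in E and 443.7 FPKM in F, and Nxph4, a neurexophilin, had the largest ratio of E to D, 18.5, and a ratio of F to E of 6.67. The summed level of 12 neuronal genes, listed as pan-neuronal, was 5053.5, 4878.2 and 4323.2 FPKM in D, E and F. None of the 12 was called different between D and E, from 0.620 for Nefl to 1.14 for Slc17a7. From D to F their median ratio was 0.899. Intervals were apart and F lower for 7 of the 12 and higher for 3, where 2778 and 4118 of the 11409 classifiable genes were. Of 8 striatal genes none was called higher in E than in D and 4 were called higher in F than in E, with sums of 43.0, 53.0 and 90.9 FPKM in D, E and F. The part of these cell types in the levels of the 9 genes was not tested.

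**Figure D3:**
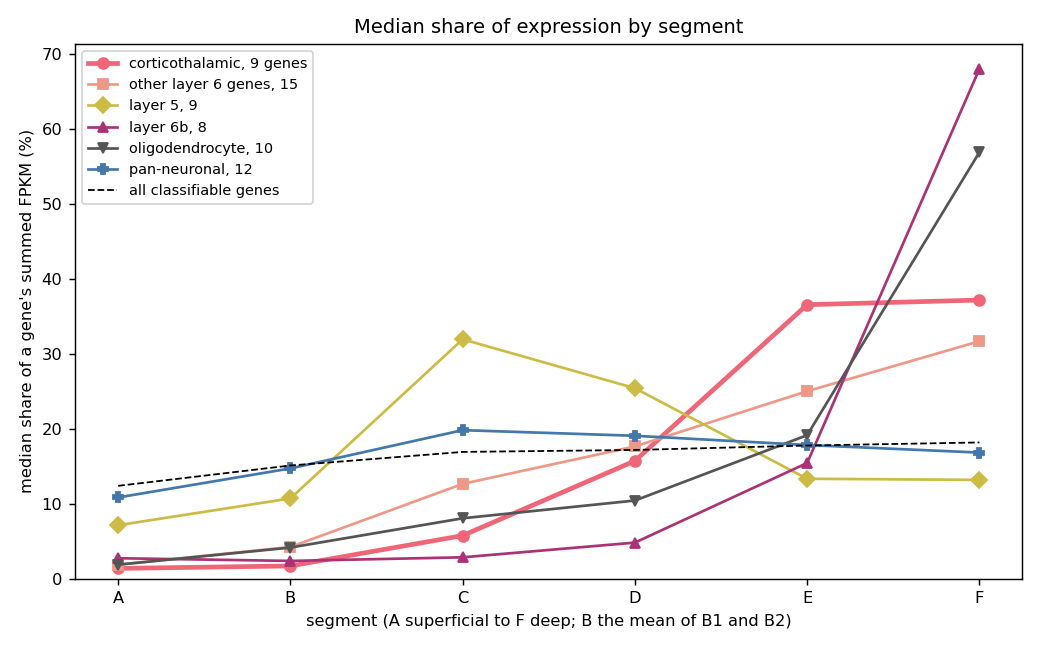
Median share of a gene's summed FPKM in each segment (vertical axis, percent) for the 9 corticothalamic genes, 5 other lists and all classifiable genes, over the 6 segments (horizontal axis). The corticothalamic genes level off from E to F at 36.5% and 37.2%, while the layer 6b and oligodendrocyte lists have their highest median share in F, 68.0% and 56.8%.

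Of 9 measured layer 5 genes, 4 were called lower in E than in D, 5 were not called and none was called higher, where 2.34% of the classifiable genes were called lower. Their summed level was 98.9 FPKM in D and 62.0 FPKM in E. The lowest ratio was that of Qrfpr, a peptide receptor, at 0.201, and the highest that of Bcl11b, a transcription factor of subcortical projection neurons, at 1.22, with intervals apart. Of 8 upper layer genes, 1 was called higher in E than in D, Otof, at 0.0540 FPKM in D and 0.178 FPKM in E. Rorb, a nuclear receptor of layer 4, had the lowest ratio, 0.511.

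Across all 7 libraries the levels were also tested with limma on log2(FPKM + 0.1), adjusted by Benjamini-Hochberg over the 11409 classifiable genes. A linear and quadratic trend over segment position passed an adjusted p of 0.05 for all 6 of the classifiable corticothalamic genes, as it did for 43.5% of all genes tested. Its error came from the difference of B1 and B2 and from departures of single libraries from the curve. Only B1 against B2 compared different mice, so the p-values say little of variation between mice. The adjusted p from limma was 0.00209 for Tle4 and for Rprm, 0.00284 for Hs3st4, 0.00371 for Ntsr1, 0.00389 for Ighm and 0.0147 for Tbr1. Without the A library the limma value of Tbr1 was 0.128, and the other 5 still passed.

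The contrast of E and F with A to D, in which the segments of each side stand as replicates and differences between layers enter the error, gave no call for these genes. No gene was called higher, which makes a background of 0.00%, and 1 was called lower, while 1297 had an unadjusted p of at most 0.05 by limma. That count was 256 without F, 809 without B2 and 1983 without A. It was 3896 when scaled by pan-neuronal genes, 2131 among genes that averaged 0.1 FPKM or more and 2750 with no filter. The log2 differences were 3.87 ± 0.93 (SE, 2 libraries against 5) for Rprm, 3.43 ± 1.07 for Ighm, 2.83 ± 0.87 for Hs3st4, 2.61 ± 0.63 for Tle4, 2.61 ± 0.59 for Ntsr1 and 1.33 ± 0.53 for Tbr1. Their unadjusted p by limma ran from 0.0022 for Ntsr1 to 0.0361 for Tbr1 and the adjusted p from 0.26 to 0.412. With every gene that averaged 0.1 FPKM or more tested, 17844 in number, Sulf1, Foxp2 and Syt6 entered with differences of 4.57 ± 0.67, 4.04 ± 0.95 and 3.65 ± 0.99 and adjusted p by limma of 0.186, 0.241 and 0.249. In that fit all 9 passed the trend test, as did 6160 of all 17844 genes. Without the D library, a setting chosen after seeing the data, Ntsr1 passed the contrast at an adjusted p of 0.037 by limma. In that fit 8 of the 11409 genes were called higher. Leaving out D widens this difference, because Ntsr1 was at 2.49 FPKM in D and at most 0.918 FPKM in A to C.

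A list of 15 further genes linked to layer 6 corticothalamic cells, from general knowledge, gave a mixed picture. Of these, 6 were called higher in E than in D, where 2.03% of the classifiable genes were, and none lower. Their median log2 ratio, over all 15, was 0.49. Sla, an adaptor protein, went from 1.37 FPKM in D to 6.02 FPKM in E, 4.38-fold. Chrna5, a nicotinic receptor subunit, went from 1.00 to 3.81 FPKM, 3.80-fold. Zfpm2, a cofactor of GATA proteins, Nxph3, a neurexophilin, Thsd7b, a thrombospondin repeat protein, and Drd1, a dopamine receptor, had ratios of 2.75, 2.64, 2.53 and 2.01. The other 9 were not called. Among them Grik3, a kainate receptor subunit, was at 1.67-fold, Nfib, a transcription factor, at 1.404-fold, and Chrna4, the partner subunit of Chrna5, at 1.27-fold, all with intervals apart.

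Sox5, Sema3e, Gabra5, Crym and Nfia had intervals that overlapped between D and E, with ratios from 0.927 for Nfia to 1.11 for Sox5. Lmo3, a LIM domain protein, was at 39.9 FPKM in D and 33.6 FPKM in E, with intervals apart. From E to F, Nxph3 and Drd1 were called higher, at 2.37-fold and 2.003-fold. By limma, the trend passed for 12 of the 13 classifiable genes of this list, against 43.5% of all genes tested. The contrast of E and F with A to D passed for none of them.

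Relatives were listed for each of the 9 genes but Ighm, and as a rule they did not share the difference. Of 38 relatives or pathway partners, 2 were called higher in E than in D and 1 lower. These calls were made for 2.03% and 2.34% of the classifiable genes, and the median log2 ratio of the 38 was -0.01. Syt10, a paralogue of Syt6, was at 1.60 FPKM in D and 4.93 FPKM in E, 3.08-fold, while Syt3, Syt5 and Syt9 were at 0.882, 1.19 and 0.994 times D. The other call was Foxp3, below 0.1 FPKM in every library. Foxp1 went from 26.5 FPKM in D to 20.9 in E and 12.2 FPKM in F, and Foxp4 from 18.1 to 21.9 and 24.4 FPKM.

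Of the Groucho relatives of Tle4, the 5 had ratios of E to D from 0.580 for Tle6 to 0.995 for Aes, with overlapping intervals in each. Aes, a short family member, was the most abundant of them, at 261.5 FPKM in E. Ntsr2, a second neurotensin receptor, was at 39.8 FPKM in D, 34.7 FPKM in E and 42.7 FPKM in F, above Ntsr1 in every library. Neurotensin itself, Nts, was at 0.0156, 0.130 and 0.807 FPKM in D, E and F. Rprml, the paralogue of Rprm, was at 51.6, 58.0 and 53.7 FPKM there, and in A it was at 51.7 FPKM where Rprm was at 2.98 FPKM.

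The 18 genes of heparan sulfate synthesis and editing beside Sulf1 and Hs3st4 gave no call higher in E than in D and 1 lower. The latter was Hs6st3, a 6-O-sulfotransferase, at 5.32 FPKM in D and 2.30 FPKM in E. Sulf2, the only paralogue of Sulf1, was at 44.5 FPKM in D, 31.6 FPKM in E and 50.6 FPKM in F. Of the other 3-O-sulfotransferases, Hs3st2 was at 61.5 and 56.7 FPKM in D and E, Hs3st5 at 3.90 and 5.55 FPKM, and Hs3st1 at 10.5 and 10.03 FPKM. Hs3st3a1, Hs3st3b1 and Hs3st6 stayed below 0.5 FPKM in every library.

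**Figure D4:**
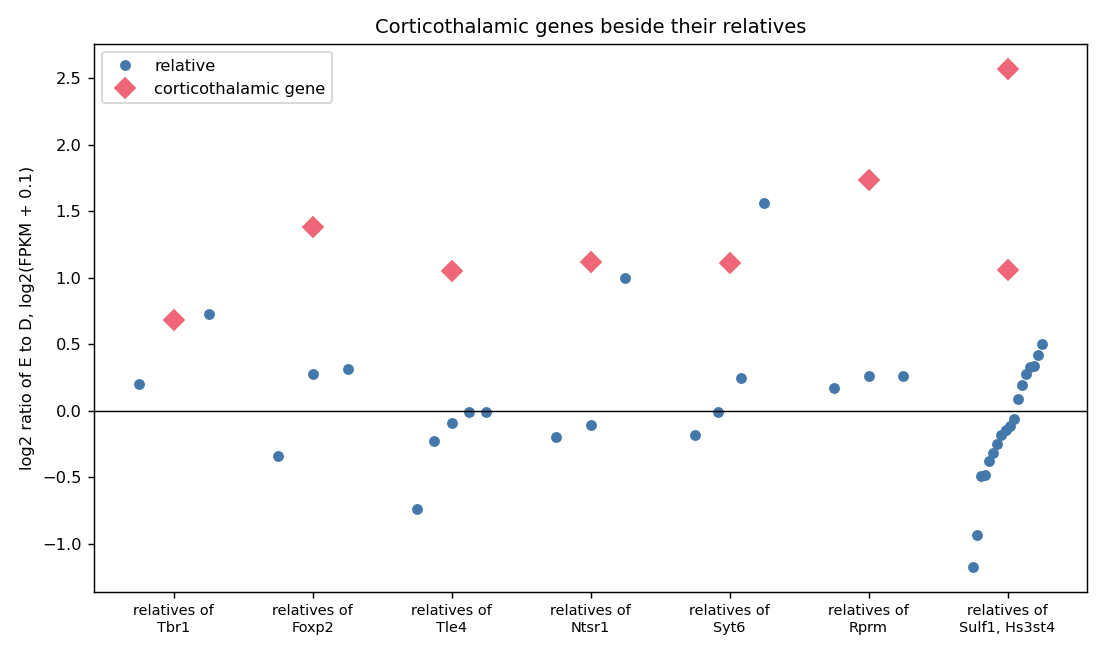
Log2 ratio of E to D on the log2(FPKM + 0.1) scale (vertical axis) for 8 of the corticothalamic genes (diamonds) and 38 relatives or pathway partners (points), grouped by gene family (horizontal axis). Most relatives lie near 0; Syt10 at 1.56 is above Syt6 at 1.11, and the points above 0.5 for Tbr1 and Ntsr1 are Eomes and Nts, both under 0.2 FPKM in D and E.

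Estimated isoform levels differed between E and F within some genes. Foxp2 had 2 isoforms in D and E, Foxp2-201 and Foxp2-207, at 6.95 and 6.29 FPKM in E. In F they were at 4.78 and 3.89 FPKM, with intervals below those of E, while 2 short ones, Foxp2-202 and Foxp2-208, were estimated at 2.24 and 2.99 FPKM. Neither short isoform was above 0 in C, D or E. The 2 long isoforms made up 34.4% and 28.0% of the sum in F, and the short ones 16.1% and 21.5%. The ratio of F to E was 0.688 for Foxp2-201 and 0.618 for Foxp2-207, against 1.05 for the gene. Part of the reads of F were 75 nt long where those of the other libraries were 50 nt, and the part of read length in the difference was not tested.

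Ighm was split between a main isoform, Ighm-201, and ENSMUST00000103425. Ighm-201 was at 37.6, 69.9 and 54.1 FPKM in D, E and F, and made up 91.2% of the sum in E. The other was at 4.78, 6.73 and 12.7 FPKM, so that from E to F the first was lower and the second higher, each with intervals apart. In A, where the sum was 2.14 FPKM, the second made up 84.0%. For Sulf1, ENSMUST00000066698 was listed at 0 in A, B1 and B2 and made up 29.3% of the sum in D, 35.8% in E and 43.3% in F, beside Sulf1-201. Syt6 was mostly Syt6-206 and Syt6-201, at 10.3 and 9.51 FPKM in E, and Syt6-201 had a higher ratio of E to D, 2.57 against 1.86. From E to F these 2 had ratios of 0.792 and 0.637, against 0.824 for the gene. Shorter isoforms, each under 10% of the sum and at 0 in every other library, added to the level in F.

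The split of isoforms also differed between the litters of layer 4. Tle4-201 was 100% of Tle4 in B1 and 54.6% in B2, and Tbr1-202 was 16.2% of Tbr1 in B1 and 0 in B2. Tbr1-201 alone was at 35.0 FPKM in B1 and 26.7 FPKM in B2. Ntsr1, Rprm and Hs3st4 had 1 isoform each.

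Models built from the same reads without the annotation gave the same direction from D to E for the main locus of each of the 9 genes. This was the locus on the gene's strand with the highest mean level. Because the reads are the same, this is not an independent test. Minor loci within Tle4 and Hs3st4 went in either direction, and that within Syt6 went down. Where a locus was mostly 1 well supported model the ratio of E to D was near that of the gene, 1.61 for Tbr1, 3.32 for Rprm, 2.05 for Hs3st4 and 1.61 for Ighm. The sums over the 34 models of the Sulf1 locus and the 30 of the Foxp2 locus gave 17.9 and 5.12. There the best supported model in E had a lower bound of 13.4 and 16.5 FPKM, against sums of 180.7 and 119.2 FPKM.

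The genes nearest to this profile over the segments were sought among 10138 classifiable genes that averaged 1 FPKM or more, by the Euclidean distance of their shares to the median profile of the 6 classifiable corticothalamic genes. The 5 nearest were Mctp1, Spsb1, Bmp3, Sema5a and Qpct, at 4.55 to 5.39 percentage points, against a median of 31.3 for all candidates. Mctp1, a membrane protein with C2 domains, was at 11.7, 24.2 and 25.8 FPKM in D, E and F. Bmp3, a growth factor of the BMP family, was at 4.60, 10.9 and 10.6 FPKM, and Sema5a, a semaphorin, at 5.87, 14.1 and 16.6 FPKM. Of the 9 genes themselves Ntsr1 and Tle4 lay closest to the profile, at 2.63 and 2.70 points, and Tbr1 and Sulf1 farthest, at 16.2 and 21.8. Ntsr1, Tle4 and Tbr1 were among the 6 genes that defined the profile, which favours a short distance, and Sulf1 was not. Ranked by Pearson correlation instead, none of the first 5 genes was shared with these.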

How the data were processed

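Poly(A) RNA of 6 S1 segments was sequenced in 7 libraries, and the 12 dorsal and lateral samples were not analysed here. Reads of 50 nt (75 nt in part of F) were mapped by the authors to mm9 with TopHat 1.0.13, and Cufflinks 0.8.3 gave the deposited FPKM, with 95% intervals, for the annotation of Ensembl release 57 (genes, transcripts) and for de novo models. Library insert sizes differed. The coverage the authors deposited for transcripts is fold read coverage and gave the depth estimates, which took all reads as 50 nt and so are too high for F. The deposited score of the de novo models was not used. The protocol names no marking of strand, so overlapping genes on opposite strands cannot be told apart.

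Genes at 2 places (7 to 13 per library) were summed, and a missing gene was set to 0. Symbols came from GENCODE M21 by identifier, for 22021 of 24130 genes. limma 3.58.1 (R 4.3.3) was run on log2(FPKM + 0.1) and tested on simulated data, with a 2-sided adjusted p of 0.05. A fold on that scale understates the change of low genes. Named were all 9 genes, all 15 other layer 6 genes and 38 relatives, the extremes of each other list in the ratio of E to D with Ctgf, Fezf2, Mbp and Snap25, the 5 nearest profiles, and isoforms of at least 10%. The genes and lists were chosen with earlier results of these data known. Of the B cell list, 1 gene is not reported here. Alternatives were other scalings, pseudocounts, filters, interval widths and fold limits, and each library left out.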

Additional observations from a re-analysis of the deposited data

Results flagged for a closer look

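A de novo locus on the strand opposite to Hs3st4, not among the Ensembl gene models that the comparisons used, carried signal in each library. It lies over the start of Hs3st4 (mm9 chr7:131122283-131128695), from 4100 bases before to 2312 bases past the start of the gene model, and holds 9 models. Its summed FPKM was 10.04, 38.0, 26.9, 26.1, 61.2, 156.6 and 226.9 from A to F, with B1 before B2, so E was 2.56-fold above D and F 1.45-fold above E. For Hs3st4 itself these ratios were 2.08 and 1.29. The best supported model in E had a lower bound of 42.1 FPKM. Since the protocol names no marking of strand and the locus overlaps the first part of Hs3st4, reads of the gene and of the locus cannot be told apart there.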

How the results depend on the processing

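Of the corticothalamic genes, 7 were called higher in E than in D and 6 in F than in D. Under the scalings, interval widths and fold limits tried, the first count ran from 7 to 9. The second ran from 5, under 1 rescaling, to 9. As 9 is all of the genes, neither count could rise further. Without a fold limit all 9 were higher in both comparisons, as were 3164 and 4118 of the 11409 classifiable genes. With the limit of 2-fold, 232 and 685 classifiable genes were. No rescaling turned the direction of any of the 9 between D and C, E and D, F and D or F and E. Without that limit, 3 of the 9 were lower in F than in E and 3 were higher, where 25.0% and 28.7% of the classifiable genes were. Dividing by the median of 12 pan-neuronal genes moved the median log2 ratio of the 9 genes to 1.49 for E to D and 1.58 for F to D, and that of all classifiable genes to 0.42 and 0.40. Dividing by the median ratio of the same genes, chosen after seeing the data, gave 1.23 and 1.44 for the 9 genes. For all classifiable genes it gave 0.17 and 0.26. The medians of the 9 genes moved by more than 0.11, the SD of the replicate pair (the median over the 9 genes). Those of all classifiable genes rose as well.

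By limma, 2 genes were called in the contrast of E and F with A to D at a pseudocount of 0.01, and 0 at a pseudocount of 1, without a filter, and with B1 and B2 averaged. Leaving out 1 library at a time (those of A, C, D, E and F chosen after seeing the data) gave 0 to 12 genes, the most without D and without E, and 0 or 1 corticothalamic genes. The trend called 4968 genes and 1147 to 6611 without 1 library, the fewest without A and 3295 without C. It called 5 or 6 of the 6 corticothalamic genes. The cause was not tested. No paired analysis was possible because only segment B has 2 libraries. With 1 library for each other segment, differences between mice limit what the intervals show.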
